A study of Mus musculus with 9 samples.

Results

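The cortical neuropeptides described here are the precursor genes Sst, Npy, Vip, Cck, Crh, Cort, Nts, Pnoc, Adcyap1 and Tac2, each found once by its symbol in a table of 55401 mouse genes. All 10 had counts, and 9 of them passed the filter for testing, a mean of at least 0.5 FPKM (fragments scaled to gene length and library size) over all libraries, as did 16740 genes of the whole table. Nts lay below that filter and was followed separately. RNA from brain tissue next to the infarct was sequenced at day 28 in 9 libraries from wild-type (WT) mice, 3 in each of 3 groups. The Pushen libraries came from mice with a photothrombotic stroke, in which light and a dye close small cortical vessels, that were gavaged from 24 h after surgery with Pushen, a drug product whose contents the labels do not describe, in ultrapure water. Their labelled doses were 391, 392 and 393 mg/kg, 1 library each, and they were taken as 1 group; consecutive numbers of this kind may be an entry error, so the dose given is uncertain. The PT libraries came from mice with the same stroke given ultrapure water alone, and the Sham libraries from sham-operated mice given ultrapure water. Sex and age are not in the labels, and nothing there states that each library is a different animal. The p-values below thus describe variation among libraries, part of which may be technical.

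Total counts per library were 57437342 to 73499628 in Pushen, 64482908 to 75100133 in PT and 66775462 to 72646409 in Sham. The labels' extraction text speaks of retinas, but 0 of 8 photoreceptor genes passed the filter, and their summed level was 0.46 to 0.60 FPKM in Pushen, 0.61 to 0.74 FPKM in PT and 0.64 to 0.70 FPKM in Sham libraries. Genes of deeper tissue differed between libraries of 1 group: 12 striatal neuron markers summed to 431.0 FPKM in PT library 1 and 51.3 to 107 FPKM in the other 8 libraries, and 9 choroid plexus markers summed to 636 FPKM in Pushen library 2, 554 FPKM in PT library 1 and 3.86 to 153 FPKM elsewhere. Where leaving out these libraries changed the call of a precursor, that value is also given.

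Neuropeptides are cut from precursor proteins, stored in dense-core vesicles and released by strong or repeated firing, after which they act on G protein-coupled receptors. In the cortex most of these precursors mark kinds of GABAergic interneuron: Sst, Npy and Cort are found in interneurons that contact dendrites or release transmitter diffusely, and Vip in interneurons that mainly inhibit other interneurons. Cck and Adcyap1 are also made by many excitatory neurons. Several of these genes are textbook targets of the transcription factor CREB, which binds the cAMP response element TGACGTCA or its shorter form TGACG.

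Promoter windows from RefSeq, reaching from 250 bases before to 50 bases after the annotated start (GRCm38.p6), were present for 8 of the 10 genes. They were searched on both strands for the full element TGACGTCA, for the shorter TGACG, which the full element contains, and for the AP-1 sequence TGANTCA. Among these 8 genes the full element was found in Sst alone, against 1.79% of all 32851 windows. The shorter form was found in 6 genes (Sst, Vip, Cck, Cort, Nts and Adcyap1), against 20.8% of all windows, and the AP-1 sequence in Nts alone, against 7.81%. The 30 bases around each match are shown because these letters are what the 6 genes share in this window. Capitals mark the match, and where it lies on the other strand it reads CGTCA.
Sst, chr16:23890874-23890903, minus strand: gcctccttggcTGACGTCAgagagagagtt
Vip, chr10:5639127-5639156, plus strand: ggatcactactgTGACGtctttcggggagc
Cck, chr9:121495724-121495753, minus strand: cctgctggactgCGTCAgcactgggtaaac
Cort, chr4:149126764-149126793, minus strand: ctccggcttgtgCGTCAccgcgtgagtgtg
Nts, chr10:102490567-102490596, minus strand: attagggaagatCGTCActttccatcaagg
Adcyap1, chr17:93198914-93198943, plus strand: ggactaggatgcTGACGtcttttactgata

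The first base of the match lay 48 bases before the RefSeq start in Sst, 79 in Vip, 47 in Cck, 18 in Cort, 166 in Nts and 91 in Adcyap1. The Sst match falls inside the first exon of the longer transcript that GENCODE M21 annotates, so it lies upstream of the start only in the RefSeq model. Npy and Tac2 had a window without either form. The 150 bases upstream of Npy are shown for contrast, since Npy, like Sst, was called in the comparison of PT with Sham. They hold 73.3% G and C, against a median of 54.0% over all windows.
Npy, chr6:49822560-49822709, plus strand: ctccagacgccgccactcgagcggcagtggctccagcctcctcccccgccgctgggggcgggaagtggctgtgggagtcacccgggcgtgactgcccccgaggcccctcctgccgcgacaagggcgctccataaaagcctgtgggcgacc

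The precursors fell into an abundant and a scarce class. In Sham libraries, per unit of gene length, Sst averaged 174 ± 8.67 FPKM, Cck 143 ± 4.12 FPKM and Npy 110.0 ± 3.25 FPKM (SD, n = 3 each), and these 3 did not overlap. Vip followed at 10.47 ± 1.18 FPKM, Cort at 5.30 ± 0.433 FPKM and Adcyap1 at 4.15 ± 0.454 FPKM, again without overlap between neighbours. Crh (3.41 ± 0.375 FPKM) overlapped Adcyap1 on one side and Tac2 (2.61 ± 0.485 FPKM) on the other, and Tac2 overlapped Pnoc (2.25 ± 0.0854 FPKM). Nts was lowest at 0.0833 ± 0.0764 FPKM.

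The order of the 5 most abundant precursors by mean was the same in all 3 groups, while the spread around it was not. In Pushen libraries Sst averaged 145 ± 27.7 FPKM, Cck 124 ± 46.5 FPKM and Npy 82.1 ± 18.9 FPKM, and neighbours in this order overlapped. In PT libraries the same genes averaged 131 ± 5.19 FPKM, 107 ± 19.3 FPKM and 81.9 ± 4.0 FPKM without overlap. Sst, Npy and Cck together made up 92.5 to 94.2% of the summed FPKM of the 10 precursors in every library, whatever the sum, which ran over 303 to 487 FPKM in Pushen, 320.0 to 373 FPKM in PT and 439.6 to 473 FPKM in Sham. The plot of levels by library shows all 10 genes.

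**Figure D1:**
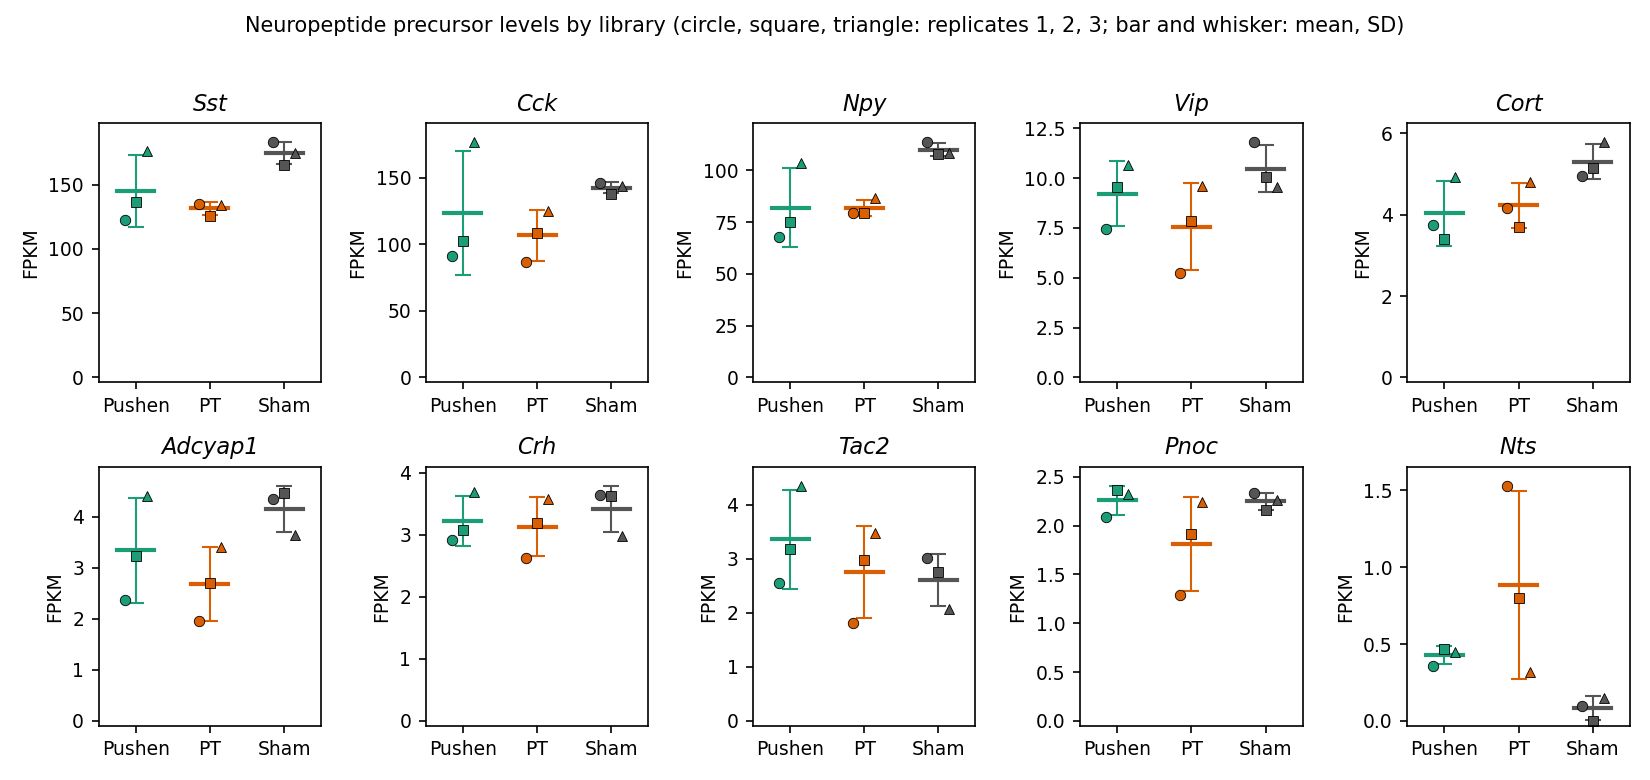
Level of each precursor in FPKM (vertical axes, starting at 0) in the Pushen, PT and Sham libraries; symbols are libraries and bars with whiskers are the mean and SD of 3. Sst and Npy lay lower in all 3 PT libraries than in any Sham library, Pushen library 3 (triangle) stood above the other Pushen libraries for 8 of the 10 genes, and Nts was at 0 to 0.15 FPKM in Sham.

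Untreated stroke tissue was compared with sham tissue to see which precursors differed 4 weeks after the infarct. Sst and Npy fell in PT libraries, to 0.724 and 0.715 times the Sham level, and no precursor among the 9 tested rose. The other 7 did not pass the threshold in edgeR, an adjusted p under 0.05, though DESeq2 also called Adcyap1 (adjusted p = 0.0304) and a fit of the PT and Sham libraries alone also called Cck (edgeR adjusted p = 0.0436). Calls were common in this comparison: 2 of 9 precursors were called, both lower, against 30.9% of all tested genes called, 11.8% lower and 19.1% higher. An unadjusted p under 0.05 was reached by 4 of 9, against 42.9% of all tested genes. The median log2 fold change of the 9 was -0.47, against -0.003 for all tested genes, and 8 of 9 were below 0. Bulk RNA cannot tell fewer cells of a type from less RNA per cell.

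Sst encodes somatostatin, the peptide that names the largest class of dendrite-targeting interneurons (ENSMUSG00000004366, chr16:23889573-23890958, GRCm38). It measured 135, 125 and 134 FPKM in PT libraries, against 183, 166 and 175 FPKM in Sham libraries. All 3 PT libraries lay below all 3 Sham libraries, with little spread within PT. The log2 fold change was -0.47 ± 0.13 (SE; edgeR adjusted p = 0.0277), with a 95% confidence interval of -0.77 to -0.17.

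Npy encodes neuropeptide Y, which dampens transmitter release and is made by neurogliaform cells and by part of the somatostatin cells (ENSMUSG00000029819, chr6:49822710-49829507). Its levels were 79.6, 79.5 and 86.5 FPKM in PT libraries, against 114, 108 and 109 FPKM in Sham libraries. The groups again did not overlap. The log2 fold change was -0.48 ± 0.15 (edgeR adjusted p = 0.0377; interval -0.82 to -0.14). Both calls were near the threshold: leaving out any 1 of PT library 1, PT library 2 or the 3 Sham libraries raised the adjusted p to between 0.051 and 0.091 for Sst and between 0.077 and 0.110 for Npy. Without PT library 1 and Pushen library 2 together neither passed (adjusted p = 0.0754 for Sst and 0.114 for Npy). The log2 fold changes hardly moved, staying between -0.51 and -0.42 for Sst and between -0.54 and -0.45 for Npy.

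Cort encodes cortistatin, a peptide of the somatostatin family that binds somatostatin receptors. It measured 4.17, 3.71 and 4.81 FPKM in PT libraries, against 4.96, 5.16 and 5.79 FPKM in Sham libraries. The groups did not overlap, but the fold change did not pass the test (log2 -0.38 ± 0.19, edgeR adjusted p = 0.168).

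Cck, the precursor of cholecystokinin, is made by a class of basket cells and by many pyramidal cells (chr9:121489824-121495639). Its levels were 86.8, 109 and 125 FPKM in PT libraries, against 146, 138 and 144 FPKM in Sham libraries. The groups did not overlap, and the log2 fold change, of the same size as that of Sst, did not pass (-0.47 ± 0.24, edgeR adjusted p = 0.169). The call depended on the Pushen libraries, which share the estimate of the spread: at the same fold change the adjusted p was 0.0436 with the PT and Sham libraries alone and 0.0293 without Pushen library 3.

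Adcyap1 encodes PACAP, an activating peptide made largely by excitatory neurons. It measured 1.96, 2.69 and 3.41 FPKM in PT libraries, against 4.35, 4.47 and 3.63 FPKM in Sham libraries. The groups did not overlap, and its log2 fold change was the furthest from 0 among the 9 (-0.68 ± 0.26, edgeR adjusted p = 0.0765). Vip, the precursor of the vasoactive intestinal peptide of interneuron-inhibiting interneurons, measured 5.24, 7.84 and 9.61 FPKM in PT libraries, against 11.8, 10.03 and 9.57 FPKM in Sham libraries. PT library 3 overlapped Sham here (log2 -0.53 ± 0.22, edgeR adjusted p = 0.105).

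Pnoc, the precursor of the opioid-related peptide nociceptin, measured 1.29, 1.91 and 2.24 FPKM in PT libraries, against 2.33, 2.16 and 2.26 FPKM in Sham libraries (log2 -0.37 ± 0.20, edgeR adjusted p = 0.190). PT library 1 was lowest, and PT library 3 lay within the Sham range. Crh encodes corticotropin-releasing hormone, a stress peptide that in cortex sits mostly in interneurons. Its levels were 2.63, 3.19 and 3.57 FPKM in PT libraries, against 3.64, 3.62 and 2.98 FPKM in Sham libraries, with overlap (log2 -0.18 ± 0.18, edgeR adjusted p = 0.460).

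Tac2 encodes neurokinin B, found in cortex in part of the Vip cells. It was the one tested precursor whose log2 fold change was not below 0 (0.02 ± 0.29, edgeR adjusted p = 0.968), with 1.81, 2.97 and 3.48 FPKM in PT libraries, against 3.01, 2.75 and 2.07 FPKM in Sham libraries. The groups overlapped fully, and the interval of -0.64 to 0.68 leaves the direction undetermined at this number of libraries.

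The levels of 5 precursors did not overlap between PT and Sham (Sst, Npy, Cck, Cort and Adcyap1), each lower in PT, against 18.6% of all tested genes lower without overlap. Some neuronal genes outside the peptide set were also called lower, as were 11.8% of all tested genes. Of 12 pan-neuronal genes 9 fell, among them Snap25, a protein of vesicle fusion, at log2 -0.75 ± 0.15 (edgeR adjusted p = 0.00721). Of 25 interneuron genes 6 fell and 0 rose, with Gad1, which makes GABA, at -0.53 ± 0.10 (adjusted p = 0.00457) and Cnr1, the cannabinoid receptor of Cck basket cells, at -0.44 ± 0.10 (adjusted p = 0.00954). Of 15 excitatory genes 2 fell, a share near that of all tested genes: Rorb and Cux2 of upper cortical layers. Both calls were lost without any 1 of the 3 Sham libraries, PT library 1 or PT library 2. Most of the listed glial genes moved the other way, where 19.1% of all tested genes were called higher. Of 6 astrocyte markers 5 rose, Gfap by log2 4.39 ± 0.42 (edgeR adjusted p = 0.000461). Of 6 microglia markers 4 rose, Cd68 by 3.97 ± 0.38 (edgeR adjusted p = 0.000461). P2ry12 (log2 -0.055 ± 0.251) and Cx3cr1 (-0.332 ± 0.675) were not called and lay below 0. Microglia markers summed to 114.5 to 170.4 FPKM in PT libraries, against 26.2 to 38.3 FPKM in Sham libraries. The part of this shift in the precursor levels was not tested.

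**Figure D2:**
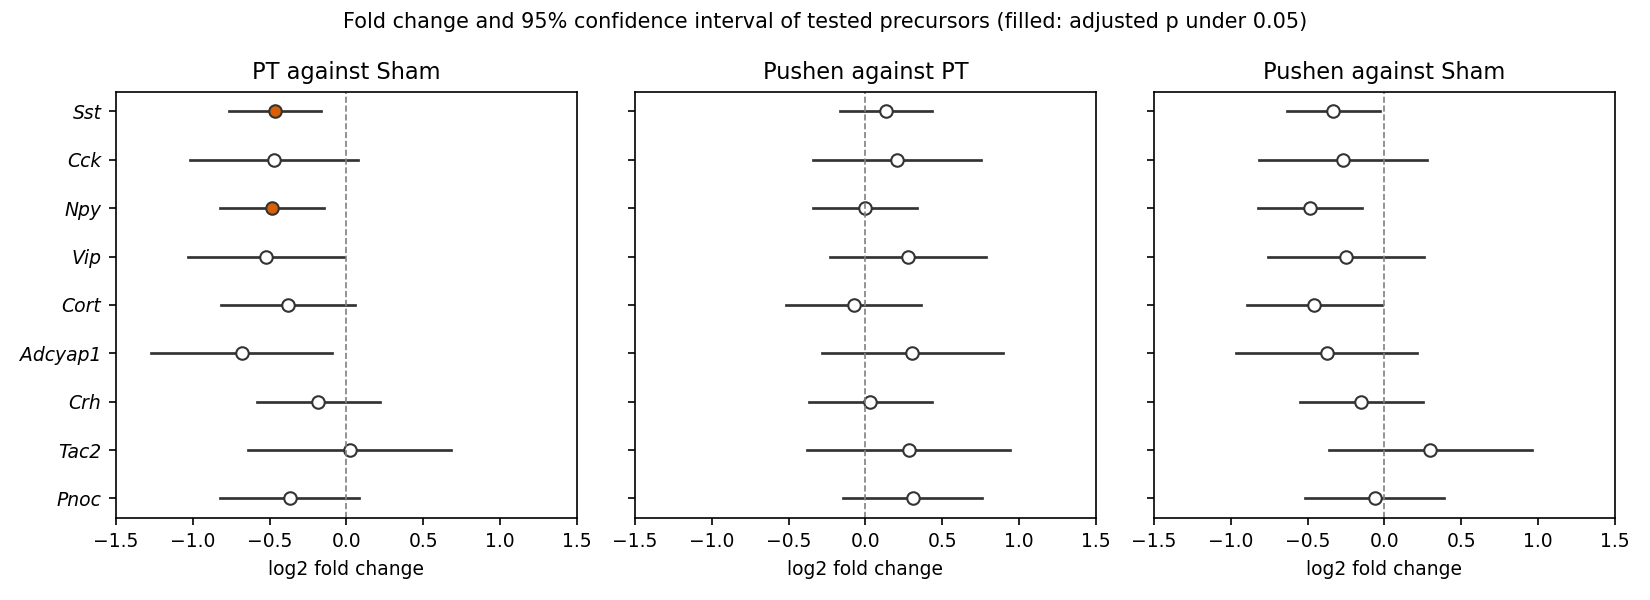
Log2 fold change (horizontal axes) of the 9 tested precursors in PT against Sham, Pushen against PT and Pushen against Sham, with 95% confidence intervals from edgeR; filled points have an adjusted p under 0.05. Sst and Npy are filled in the first panel, and no point is filled in the other panels.

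Nts, the precursor of neurotensin, a peptide known for its effect on dopamine signalling, was the one precursor higher in stroke tissue (chr10:102481756-102490486). It had 30, 50 and 40 counts in Pushen libraries, 155, 86 and 30 counts in PT libraries and 10, 0 and 15 counts in Sham libraries, where 0 counts allows up to 3. In FPKM these were 0.36, 0.47 and 0.45 in Pushen, 1.53, 0.80 and 0.32 in PT and 0.10, 0.00 and 0.15 in Sham. Every stroke library, treated or not, lay above every Sham library, as did 18.5% of all genes with any count in PT against Sham and 16.9% in Pushen against Sham.

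In a fit of all 35527 genes with any count, Nts passed in PT against Sham (log2 3.26 ± 0.88, edgeR adjusted p = 0.0351), where 13.8% of genes were called and 9.18% called higher. The ratio of mean FPKM was 10.6. Without PT library 1 the log2 fold change was 2.63 and the adjusted p 0.123. Without PT library 1 and Pushen library 2 together the log2 fold change was 2.625 and the adjusted p 0.164. The call was also lost, with an adjusted p of 0.0509 to 0.0991, on leaving out Sham library 1, PT library 2, Pushen library 1 or Pushen library 2. In Pushen against Sham the log2 fold change was 2.23 ± 0.87 (adjusted p = 0.179), where 7.34% of genes were called, and in Pushen against PT it was -1.03 ± 0.78 (adjusted p = 0.760).

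Striatal markers ran beside Nts. Their summed level was 87.8, 82.9 and 62.1 FPKM in Pushen libraries, 431.0, 107 and 60.6 FPKM in PT libraries and 51.3, 62.9 and 67.9 FPKM in Sham libraries. The 2 libraries with the most Nts, PT libraries 1 and 2, also had the highest sums. In PT against Sham 4 of 10 tested striatal markers rose and 1 fell, against 19.1% and 11.8% of all tested genes. Of the 4 that rose, the calls of Adora2a, Gpr6 and Drd2 were lost without any 1 of the 3 Sham libraries, and that of Drd2 also without PT library 1. For the remaining one, Rgs9 (edgeR adjusted p = 0.0355), the effect of leaving out libraries was not examined. PT library 3 and Pushen library 3 had more Nts than any Sham library at a striatal sum within the Sham range. The 12 hypothalamic and thalamic markers summed to 10.46 to 16.79 FPKM in Pushen libraries and 13.79 to 14.76 FPKM in PT libraries. In Sham libraries their sum was 9.64 to 9.8 FPKM. All stroke libraries thus lay above Sham, but PT library 1, with the most Nts, had the lowest PT sum. In PT against Sham 3 of 5 tested rose (Prkcd, Tcf7l2 and Lef1) and 0 fell. On leaving out 1 library the call of Prkcd was kept, and those of Tcf7l2 and Lef1 could be lost. The part of striatal, hypothalamic or thalamic RNA in the Nts values was not tested.

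**Figure D3:**
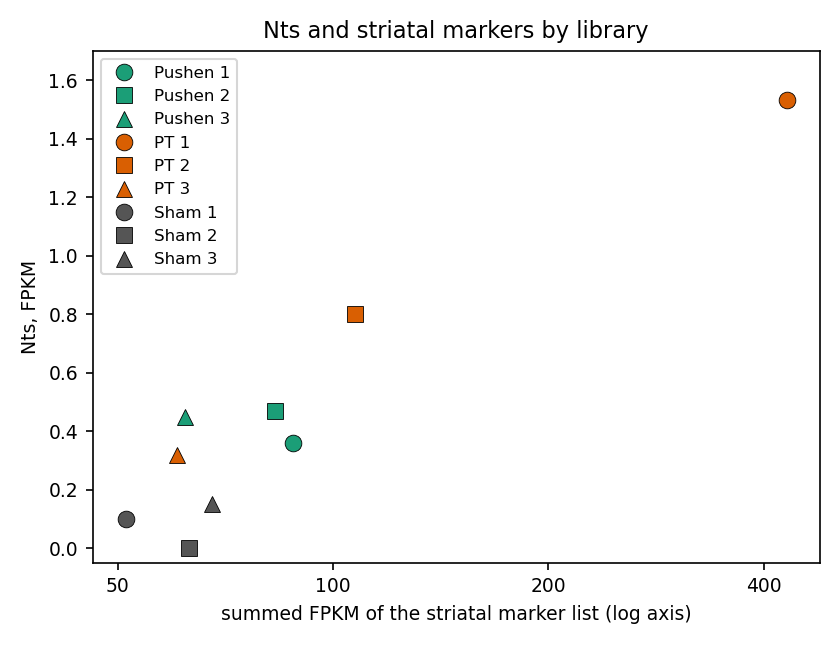
Nts level in FPKM (vertical axis) against the summed FPKM of 12 striatal neuron markers (horizontal log axis), 1 point per library. PT library 1 stands apart at 431.0 FPKM of striatal markers and 1.53 FPKM of Nts, and all Sham libraries lie at or under 0.15 FPKM of Nts.

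Treated and untreated stroke tissue were compared to see whether precursor levels differed with Pushen. None of the 9 tested precursors passed in Pushen against PT, and for none of them were the groups apart, as they were for 12.4% of tested genes. Of all 16740 tested genes 0 were called by edgeR (0.0%), with 1086 (6.49%) at an unadjusted p under 0.05, 48 called by DESeq2 and 0 by limma. No precursor had an unadjusted p under 0.05, and none was called by DESeq2 or limma. The log2 fold change was above 0 for 7 of 9, with a median of 0.20 against -0.01 for all tested genes.

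Sst measured 123, 136 and 176 FPKM in Pushen libraries, against 135, 125 and 134 FPKM in PT libraries. Npy measured 67.8, 74.99 and 104 FPKM in Pushen libraries, against 79.6, 79.5 and 86.5 FPKM in PT libraries. For both genes the lowest of the 6 stroke libraries was Pushen library 1 and the highest Pushen library 3. The 95% intervals of the log2 fold change were -0.17 to 0.43 for Sst (edgeR adjusted p = 0.785) and -0.34 to 0.34 for Npy (adjusted p = 0.996).

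Cck measured 91.6, 102 and 177 FPKM in Pushen libraries, against 86.8, 109 and 125 FPKM in PT libraries. Vip measured 7.44, 9.54 and 10.7 FPKM in Pushen libraries, against 5.24, 7.84 and 9.61 FPKM in PT libraries. Adcyap1 measured 2.37, 3.23 and 4.41 FPKM in Pushen libraries, against 1.96, 2.69 and 3.41 FPKM in PT libraries. In each of these 3 genes Pushen library 3 was the highest and PT library 1 the lowest of the 6. The intervals of the log2 fold change were -0.34 to 0.75 for Cck, -0.23 to 0.78 for Vip and -0.28 to 0.89 for Adcyap1.

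Among the scarcer genes, Pnoc measured 2.09, 2.37 and 2.32 FPKM in Pushen libraries, against 1.29, 1.91 and 2.24 FPKM in PT libraries. Its edgeR adjusted p of 0.716 was the smallest of the 9 (log2 0.31 ± 0.20, interval -0.15 to 0.76). Tac2 measured 2.55, 3.18 and 4.35 FPKM in Pushen libraries, against 1.81, 2.97 and 3.48 FPKM in PT libraries. Both genes had their lowest value in PT library 1, and the interval for Tac2 was -0.38 to 0.94. Crh measured 2.91, 3.08 and 3.68 FPKM in Pushen libraries, against 2.63, 3.19 and 3.57 FPKM in PT libraries (log2 0.03 ± 0.18, interval -0.37 to 0.43). Cort measured 3.76, 3.41 and 4.94 FPKM in Pushen libraries, against 4.17, 3.71 and 4.81 FPKM in PT libraries (log2 -0.08 ± 0.19, interval -0.52 to 0.36). For Crh and Cort the groups covered nearly the same range.

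Treated stroke tissue was then set against sham tissue, and no precursor passed the threshold. Of the 9 precursors 0 were called by edgeR and by limma, 1 (Npy) by DESeq2, and 3 had an unadjusted p under 0.05, against 16.2% of all tested genes called, 13.5% higher and 2.73% lower, and 31.9% at that unadjusted p. Npy was closest, at log2 -0.49 ± 0.15 (edgeR adjusted p = 0.0574), and Npy and Cort (-0.46 ± 0.19, adjusted p = 0.143) were lower in all Pushen libraries than in any Sham library, against 13.1% of tested genes lower without overlap. Sst had -0.33 ± 0.13 (adjusted p = 0.123). The remaining 6 ran over -0.38 for Adcyap1, -0.27 for Cck, -0.25 for Vip, -0.15 for Crh, -0.06 for Pnoc and 0.30 for Tac2. PT and Pushen share the Sham libraries here, so the 2 sets of values are not independent.

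The Pushen group was split by 1 library. Pushen library 3 was the highest of the 6 stroke libraries for 8 of 9 tested precursors, and PT library 1 was the lowest for 6 of 9. Set against the Sham mean on the log2 scale of normalised counts (CPM), Pushen library 3 stood at -0.03 for Sst, -0.14 for Npy and 0.27 for Cck. Pushen library 1 stood at -0.58, -0.78 and -0.72 for the same genes, and Pushen library 2 at -0.43, -0.62 and -0.55.

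Without Pushen library 3, 4 precursors were called lower in Pushen against Sham (Cck, Cort, Npy and Sst), and 4 in PT against Sham (Adcyap1, Cck, Npy and Sst), where only the estimate of the spread changed. Without PT library 3, 4 were called lower in PT against Sham (Sst, Npy, Adcyap1 and Vip). Calls over all 16740 tested genes also moved on leaving out 1 library. They ran over 3198 to 5799 in PT against Sham, against 5176 with all libraries. In Pushen against Sham they ran over 1538 to 3736, against 2718. These precursor counts thus cannot be read apart from the change in calls over all genes. In Pushen library 3 the astrocyte and microglia lists were also nearer to Sham. Astrocyte markers summed to 427 FPKM, against 603 to 639 FPKM in the other Pushen libraries and 241 to 275 FPKM in Sham. Microglia markers summed to 75.4 FPKM there, against 142 to 145 FPKM in the other Pushen libraries and 26.2 to 38.3 FPKM in Sham. Not every list did so. Activity-regulated genes, described further below, summed to 207 FPKM in Pushen library 3. That was above the 165 and 178 FPKM of the other Pushen libraries and the 132 to 184 FPKM of Sham. Choroid plexus markers summed to 153 FPKM there, between the 31.4 and 636 FPKM of the other Pushen libraries. The part of these differences in the precursor levels of Pushen library 3 was not tested.

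**Figure D4:**
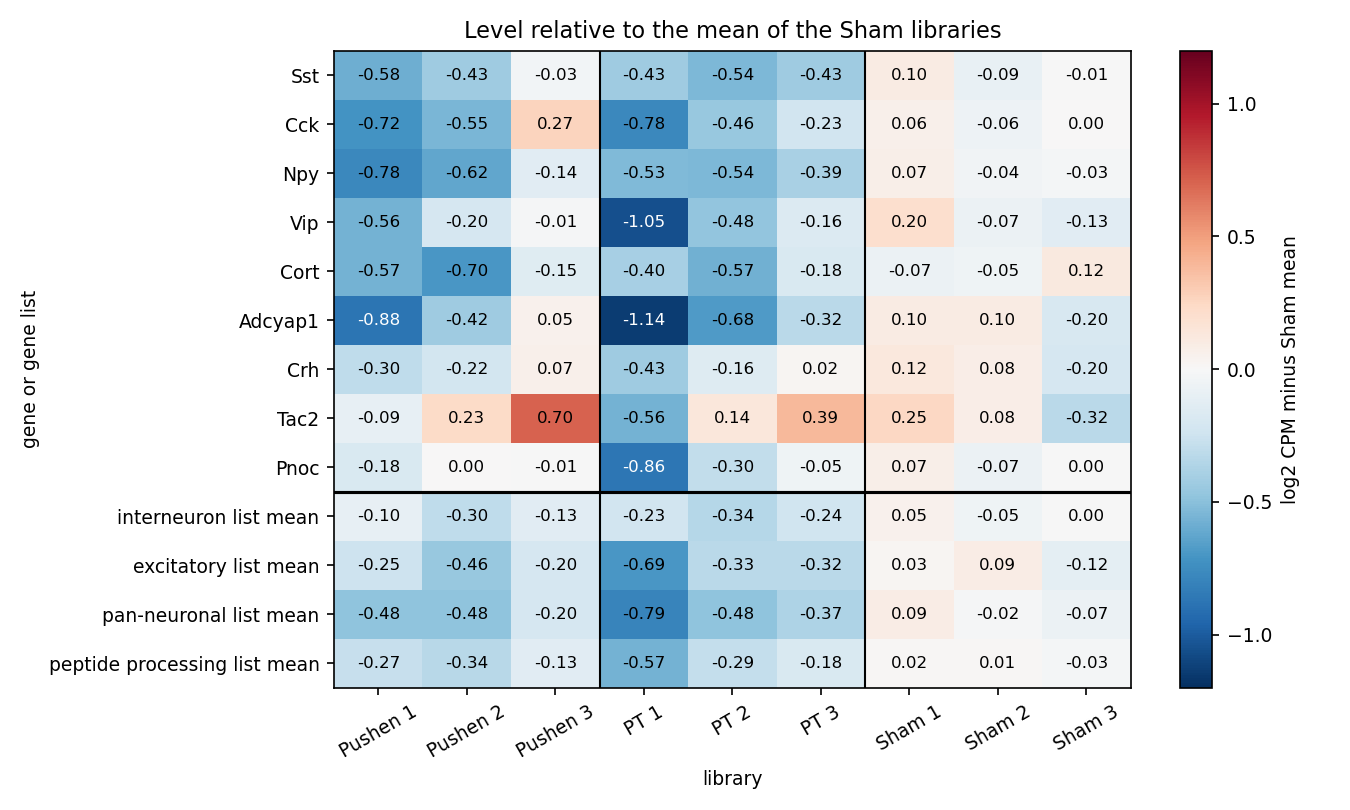
Log2 CPM minus the mean of the Sham libraries (colour and printed values) for each tested precursor and for the mean of 4 neuronal gene lists, in Pushen, PT and Sham libraries. Pushen library 3 lies between -0.15 and 0.70 for the precursors, and PT library 1 holds the lowest values of the stroke libraries for Vip, Adcyap1 and Pnoc.

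Precursors were next set against GABA genes of the same library, the mean log2 level of Gad1, Gad2 and Slc32a1, the last of which loads GABA into vesicles. Nothing passed: of the 30 comparisons in this family each had an adjusted p of 0.6 or more, and 3 libraries against 3 cannot give an exact permutation p below 0.1. Relative to these genes Sst was lower in PT than in Sham by a log2 difference of -0.11 (pooled SD 0.07, n = 3 each, exact two-sided permutation p = 0.3), against its log2 fold change of -0.47 over all RNA. Npy differed by -0.13 (pooled SD 0.08, exact p = 0.1), the one tested precursor lower in every PT library than in any Sham library on this scale. The share of all tested genes that lie apart in this way on the same scale was not examined. Adcyap1 differed by -0.36 (pooled SD 0.33, exact p = 0.2). The base itself was uneven in PT library 1, the library with the most striatal markers. There Slc32a1 measured 38.0 FPKM, against 32.05, 35.3 and 36.95 FPKM in Sham libraries. Gad1 measured 30.1 FPKM there, against 46.3, 48.4 and 47.5 FPKM in Sham libraries. The part of striatal RNA in this base was not tested.

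On the same scale Tac2 and Pnoc were higher in every Pushen library than in any Sham library, by 0.60 (pooled SD 0.32) and 0.26 (pooled SD 0.06), each with an exact permutation p of 0.1 in 3 against 3 libraries. In PT against Sham both overlapped, at 0.34 and -0.05, PT library 1 being the lowest PT library for each. The base was itself lower in Pushen than in Sham, at log2 -0.44 for Gad1, -0.19 for Gad2 and -0.32 for Slc32a1, of which Gad1 alone was called. A gene at the same level in both groups would thus stand higher in Pushen on this scale. How many of all tested genes do so was not examined. Relative to Gad2 alone the Pnoc difference between Pushen and Sham was 0.13 and that of Tac2 0.48, and relative to the pan-neuronal genes they were 0.32 and 0.67. Relative to the mean of the pan-neuronal genes in place of the GABA genes, Sst in PT against Sham turned to 0.08 and Npy to 0.07. The direction of the Sst and Npy difference per neuron transcript thus depended on the genes used as the base.

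Ratios between precursors were compared for 6 pairs that share cells or a peptide family, 18 comparisons in all, again with 0.1 as the smallest exact p and an adjusted p of 0.36 or more throughout. How often the ratios of other gene pairs separate the groups without overlap was not examined. A lack of overlap is thus given as a description only. The ratio of Tac2 to Vip, which share a class of cells, differed most from Sham. On the log2 scale it was -2.84, -2.88 and -2.60 in Pushen libraries, -2.83, -2.70 and -2.77 in PT libraries and -3.27, -3.16 and -3.50 in Sham libraries. Both stroke groups lay above Sham without overlap, by 0.54 (pooled SD 0.16) in Pushen and 0.55 (pooled SD 0.13) in PT, each with an exact permutation p of 0.1 (n = 3). The ratio of Crh to Vip was higher in PT than in Sham by 0.38 without overlap (exact permutation p = 0.1), and overlapped in Pushen.

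The ratio of Sst to Npy was narrow in all libraries, at 1.699 to 1.82 in Pushen, 1.55 to 1.696 in PT and 1.54 to 1.61 in Sham in FPKM. On the log2 scale it was higher in Pushen than in PT by 0.145 (pooled SD 0.06) and than in Sham by 0.16 (pooled SD 0.05), without overlap (exact permutation p = 0.1 each, n = 3), while PT overlapped Sham. Pushen and PT were barely apart, with a lowest log2 ratio of 1.114 in Pushen and a highest of 1.111 in PT. Sst and Cort, a pair of related sequence, kept a ratio of 27.8 to 40.0 over the 9 libraries, with overlap between all groups. The ratios of Adcyap1 to Vip and of Cck to Pnoc also overlapped in every comparison.

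Of the receptors of these peptides, 20 genes, 14 were tested. In PT against Sham 5 fell and 1 rose, where 30.9% of all tested genes were called, with a median log2 fold change of -0.425, against -0.003 for all tested genes. In Pushen against Sham 1 fell and 1 rose, where 16.2% of all tested genes were called, and in Pushen against PT 0 were called. Npy5r, a receptor of neuropeptide Y, had the smallest p: it measured 1.38, 1.42 and 1.31 FPKM in Pushen libraries, 1.13, 1.09 and 1.55 FPKM in PT libraries and 2.12, 2.46 and 2.48 FPKM in Sham libraries. Both stroke groups lay below Sham without overlap, at log2 -0.84 ± 0.17 in Pushen (edgeR adjusted p = 0.00964) and -0.96 ± 0.17 in PT (adjusted p = 0.00355). Npy1r, a second receptor of the same peptide, did not pass (-0.30 ± 0.09 in Pushen and -0.24 ± 0.09 in PT against Sham).

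Of the somatostatin receptors, Sstr3 measured 4.56, 5.27 and 5.54 FPKM in PT libraries, against 7.70, 7.91 and 7.49 FPKM in Sham libraries, and fell by 0.64 ± 0.12 on the log2 scale (edgeR adjusted p = 0.00433). Sstr1, named after its values were seen, fell by 0.81 ± 0.20 (adjusted p = 0.0164, and 0.053 without Sham library 1 or 2), with 2.82, 4.48 and 4.21 FPKM in PT libraries, against 6.51, 6.83 and 6.05 FPKM in Sham libraries. Sstr2 and Sstr4 did not pass, and Sstr5 was below the filter. Oprl1, the nociceptin receptor, fell in PT against Sham by 0.56 ± 0.13 (edgeR adjusted p = 0.0128).

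The neurotensin receptors moved apart. Ntsr2, known to be made largely by astrocytes, measured 37.2, 29.4 and 28.3 FPKM in Pushen libraries, 38.8, 30.8 and 29.6 FPKM in PT libraries and 19.9, 18.8 and 21.1 FPKM in Sham libraries. It rose in both stroke groups, by log2 0.60 ± 0.13 in Pushen (edgeR adjusted p = 0.0154) and 0.67 ± 0.13 in PT (adjusted p = 0.00593). In Pushen the call was lost without Pushen library 1, Sham library 1 or Sham library 2 (adjusted p of 0.052 to 0.068). Ntsr1, a neuronal receptor named after its values were seen, fell in PT against Sham (-0.63 ± 0.20, adjusted p = 0.0435), a call lost without any 1 of the 3 Sham libraries, PT libraries 1 and 2 or Pushen library 1 (adjusted p of 0.0592 to 0.128) and in 6 of 12 other alternatives. Astrocyte markers rose beside Ntsr2, 5 of 6 in PT against Sham; the part of astrocyte numbers in the Ntsr2 values was not tested.

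**Figure D5:**
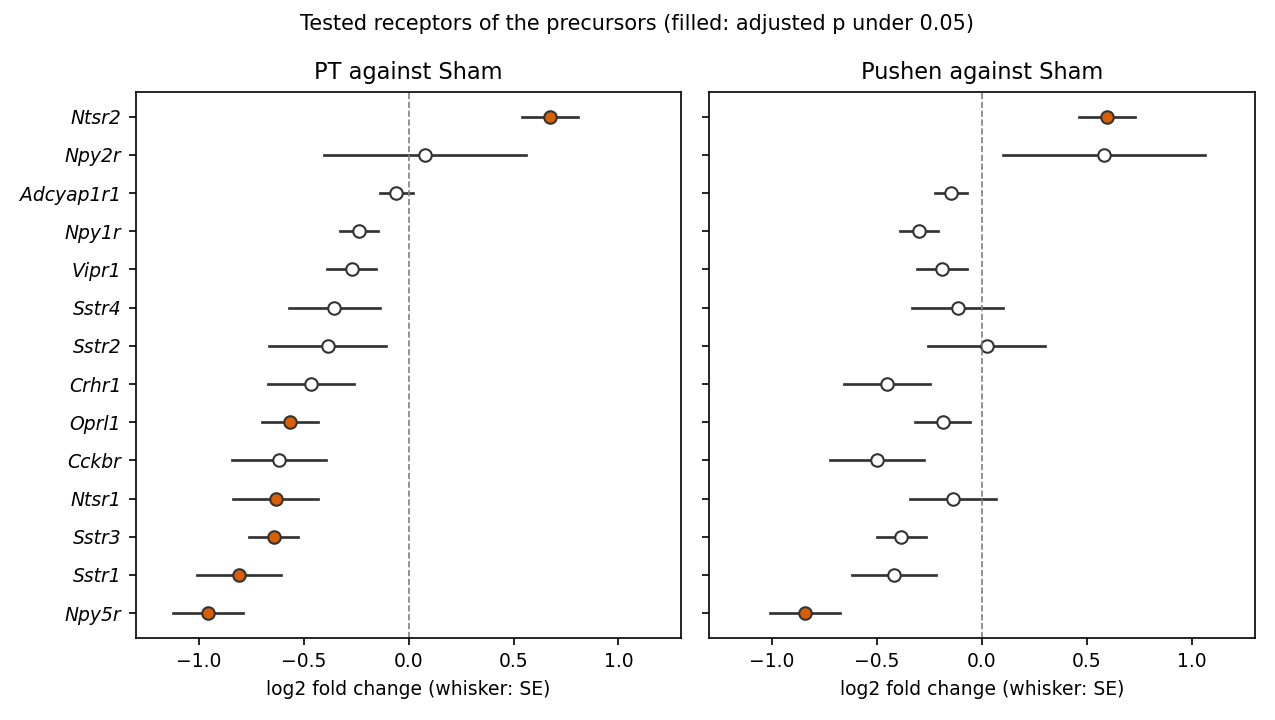
Log2 fold change with SE (horizontal axes) of the 14 tested receptor genes in PT against Sham and in Pushen against Sham; filled points have an edgeR adjusted p under 0.05. Npy5r is filled below 0 and Ntsr2 above 0 in both panels, while Sstr1, Sstr3, Ntsr1 and Oprl1 are filled in PT against Sham alone, a difference that was not called in Pushen against PT.

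Genes that cut, amidate and pack the precursors all passed the filter, 16 in number. Of these, 6 fell and 1 rose in PT against Sham, where 30.9% of all tested genes were called, 11.8% lower. In Pushen against Sham 3 fell (Chga, Pcsk2 and Scg5) and 1 rose, where 16.2% of all tested genes were called, 2.73% lower. In Pushen against PT 0 were called. Pcsk2, the convertase that cuts many of these precursors, measured 42.3, 41.7 and 51.5 FPKM in Pushen libraries, 34.4, 41.0 and 41.4 FPKM in PT libraries and 56.7, 59.7 and 55.9 FPKM in Sham libraries. It fell by 0.41 ± 0.11 in Pushen (edgeR adjusted p = 0.0385) and by 0.62 ± 0.11 in PT (adjusted p = 0.00446) on the log2 scale. Chga, a granin of dense-core vesicles, fell in PT by 0.49 ± 0.10 (adjusted p = 0.00758), and Cadps2, which primes those vesicles for release, fell by 0.95 ± 0.21 (adjusted p = 0.0108).

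Cpe, the carboxypeptidase that trims the cut peptides, ran the other way. It measured 944, 868 and 837 FPKM in Pushen libraries, 1072, 951 and 867 FPKM in PT libraries and 597, 647 and 687 FPKM in Sham libraries. It rose in both stroke groups without overlap, by log2 0.39 ± 0.10 in Pushen (edgeR adjusted p = 0.0290) and 0.525 ± 0.10 in PT (adjusted p = 0.00521). Astrocyte markers, whose cells also make Cpe, summed to 427 to 639 FPKM in Pushen libraries, 513 to 792 FPKM in PT libraries and 241 to 275 FPKM in Sham libraries; their part in the Cpe values was not tested. In Pushen against Sham the calls of Cpe, Pcsk2, Chga and Scg5 were each lost without any 1 of the 3 Sham libraries, Pushen library 1 or Pushen library 2, and those of Pcsk2, Chga and Scg5 also without PT library 2. The adjusted p then reached up to 0.121 for Cpe, 0.141 for Pcsk2, 0.124 for Chga and 0.165 for Scg5. The calls were also lost in 7 of 12 other alternatives for Scg5, 5 for Pcsk2, 3 for Chga and 1 for Cpe.

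For each tested precursor the genes of most similar level over the 9 libraries were listed by Pearson's r of log2 CPM among 14410 genes, as a description. Sst and Npy shared their closest gene, Chchd4, which encodes a mitochondrial import protein, with r = 0.985 for Sst and r = 0.988 for Npy. Vstm2b and Bex2 followed for Sst, and Lrrc3b and Armc9 for Npy. The closest genes were Kpna6 for Vip, Cntn6 for Cck, Ilrun and Kcnh2 for Cort, Rybp for Crh, Fbxw7 for Tac2, and the pseudogene Sms-ps for Pnoc, at r of 0.948 for Crh to 0.986 for Pnoc. For Adcyap1 they were Marchf11, Ppia and Vipr1 (r = 0.972), the last of which encodes a receptor that binds PACAP and VIP. With 9 libraries in 3 groups, such r values also reflect the differences between groups and the libraries that stand apart.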

How the data were processed

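The deposited table gives, per the file headers, read counts and FPKM for each gene and library, in 9 libraries of each unit with 0 columns unmatched. The counts are the authors' raw values per gene. The FPKM values, which the authors also deposited, correct for length and depth. TruSeq RNA libraries were made, per the labels' protocols; Bowtie 0.12.2 and build mm8 are named in the submitters' processing notes. How reads were counted, and whether by strand, is not stated in any source used here. Coordinates in the table match GRCm38, where start and end equal those of GENCODE M21 for 51957 of 55141 shared identifiers (94.2%). None of the 10 genes overlaps another gene there.

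Counts of the 16740 genes averaging 0.5 FPKM or more were scaled by TMM and fitted for all 9 libraries together with edgeR 4.0.16 (quasi-likelihood test, R 4.3.3), with Benjamini-Hochberg adjustment over all of them. The SE of a log2 fold change was derived from the F statistic. Nts was taken from the same fit without the filter. The main edgeR fit was tested on simulated counts. Alternatives were other scalings and filters, DESeq2 1.42.0, limma 3.58.1 on log2 FPKM with a pseudocount of 0.1 or 1, the compared libraries alone, a replicate block, and leaving out libraries. Ratios and levels relative to GABA genes were compared by exact two-sided permutation tests. Promoter sequences are from RefSeq (GRCm38.p6). The members and the gene lists were chosen with earlier results of these data known. All 10 precursors are named. Of each list up to 4 called genes of smallest p are named per comparison, and others are said to be named after their values were seen.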

Additional observations from a re-analysis of the deposited data

How the results depend on the processing

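The 3 libraries a group limit every test, and Nts rests on 0 to 155 counts a library. Directions of called precursors did not change under any alternative run. Precursors called in PT against Sham, 2 as reported, numbered 3 by DESeq2 (with Adcyap1), with the compared libraries alone (with Cck) and without the filter or with filterByExpr (with Nts), 1 by library size alone or by limma with a pseudocount of 1, 0 without PT library 1 and Pushen library 2 together, and 0 to 4 on leaving out 1 library. In Pushen against Sham they numbered 1 by DESeq2 and 0 to 4 on leaving out 1 library. All genes called numbered 3198 to 5799 in PT against Sham, 0 to 5 in Pushen against PT and 1538 to 3736 in Pushen against Sham on leaving out 1 library. In Pushen against PT 48 genes were called by DESeq2, 1 with the compared libraries alone and 2 without PT library 1 and Pushen library 2.

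Reversals were confined to uncalled values. For Tac2 in PT against Sham the log2 fold change was -0.005 without the filter, and -0.197 to 0.247 on leaving out 1 library. For Npy in Pushen against PT it was 0.002 with RLE factors and with DESeq2, 0.005 by library size alone, 0.003 without the filter and with filterByExpr, 0.041 without PT library 1 and Pushen library 2, and -0.217 to 0.123 on leaving out 1 library. In the same comparison, leaving out 1 library gave -0.039 to 0.247 for Sst, -0.161 to 0.384 for Cck, -0.084 to 0.140 for Crh and -0.259 to 0.034 for Cort, and leaving out PT library 1 and Pushen library 2 gave -0.042 for Crh and 0.022 for Cort. For Pnoc in Pushen against Sham it was 0.010 by library size alone, and 0.005 and 0.004 by limma with a pseudocount of 0.1 and 1. The causes were not tested.

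Replicate numbers did not pair the libraries: same-numbered libraries of 2 groups had correlated deviations of -0.228 to 0.073. With the replicate number as a block, 4266 genes and 2 precursors were called in PT against Sham, 0 genes in Pushen against PT, and 2108 genes and 0 precursors in Pushen against Sham, and Tac2 in PT against Sham turned to -0.045.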

Other observations

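Other neuropeptide precursors were searched beside the 10 genes. Of 18 listed 10 were tested, and 0 were called in any comparison by edgeR. Penk, the precursor of the enkephalins, which is abundant in striatal neurons, had 20.4, 24.9 and 18.2 FPKM in Pushen libraries, 130.0, 29.7 and 15.8 FPKM in PT libraries and 20.9, 14.1 and 17.5 FPKM in Sham libraries. Tac1, the precursor of substance P, likewise stood at 10.97 FPKM in PT library 1 and at 1.38 to 2.59 FPKM in the other 8. Both peaks fall in the library with the highest striatal marker sum, and their relation to it was not tested. Gal had no count in any library.

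Activity-regulated genes, which include factors that bind the cAMP response element or the AP-1 sequence, were also compared. Of 10 tested 6 rose and 0 fell in PT against Sham, against 19.1% of all genes called higher, with Fos at log2 1.66 ± 0.19 (edgeR adjusted p = 0.000628), Egr2 at 2.31 ± 0.31 (adjusted p = 0.00111) and Junb at 1.12 ± 0.16 (adjusted p = 0.00147). Fosb, Egr1, Npas4 and Bdnf did not pass, the last at -0.35. Fos measured 11.3, 9.22 and 9.90 FPKM in Pushen libraries, 14.7, 13.4 and 19.9 FPKM in PT libraries and 3.80, 4.99 and 5.83 FPKM in Sham libraries. In Pushen against Sham 2 rose, Egr2 and Fos, against 13.5% of all tested genes called higher, and in Pushen against PT 0 were called.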
